A study of Homo sapiens with 10 samples.

Results

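The IL-12 family is a small group of cytokines that are each built from 2 chains, together with the receptor chains that bind them. The 9 genes described here were taken by symbol, as IL12A, IL12B, IL23A, IL27 and EBI3 for the cytokine chains and IL12RB1, IL12RB2, IL23R and IL27RA for the receptor chains. All 9 were among the 19590 genes of the RNA-Seq table, and 6 of them had enough reads for testing, which required 10 or more normalized counts on average over the 8 libraries. IL12RB2, IL23R and IL27 did not.

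RNA-Seq had been performed in MV4-11, an established human AML cell line that is labelled as a myeloid leukaemia. The 4 Control libraries came from cells that had been infected with a control vector, and the 4 IRF8 KO libraries from cells in which IRF8, a transcription factor of the interferon regulatory family, had been targeted with lentiCRISPRv2. Both groups had therefore been through a lentiviral infection, and no stimulus that would induce cytokines is given for either group. The KO cells were clones obtained by limited dilution and made with different guide RNAs. The methods describe fewer clones than the 4 KO libraries, so that some KO libraries share a clone unless other clones were used. The sources used here do not say which clone each KO library came from, or whether replicates were separate cultures. The p-values therefore measure the spread between these libraries, and not between independent knockouts. The IRF8 ChIP-Seq samples were not analysed here.

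As background, IL-12 is the dimer of IL12A and IL12B, IL-23 the dimer of IL23A and the same IL12B chain, IL-27 the dimer of IL27 and EBI3, and IL-35 the dimer of IL12A and EBI3. Myeloid cells are the main producers of IL-12 and IL-23 after contact with microbes, and IRF8 is a known activator of IL12B in macrophages and dendritic cells. T and NK cells are the main responders, through IL12RB1 joined to IL12RB2 for IL-12, IL12RB1 joined to IL23R for IL-23, and IL27RA joined to IL6ST for IL-27. These receptors signal through the kinases JAK2, TYK2 and JAK1 to factors of the STAT family, such as STAT4 for IL-12 and STAT3 for IL-23.

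IRF8 belongs to a family that binds DNA at GAAA repeats, and with the ETS factor PU.1 it binds a composite of GGAA and GAAA. The promoters of the members are therefore shown first. RefSeq promoter windows on GRCh38.p14, from 250 bases before to 50 bases after the start of the gene, were at hand for 7 of the 9 members in 8 windows, and IL27 and IL23R had none. Each window was searched on both strands for GAAANNGAA, the core of an interferon-stimulated response element, and for GGAANNGAA, the core of an ETS-IRF composite element. The motifs differ in 1 letter and cannot match at the same position of the same strand. Of 35116 RefSeq promoters, 8.11% hold the former, 7.79% the latter and 14.8% either. A match was found for IL12RB1, IL23A and IL12A, and none in the windows of IL12B, EBI3, IL27RA and IL12RB2. The sequences below are those of the 2 genes whose difference passed a test in at least 1 fit described here, IL12RB1 and EBI3, of IL12B as the chain that IRF8 is known to act on, and of the stretches with a match in IL23A and IL12A. The first 3 are the 250 bases before the start, without the 50 bases after it. Capitals mark the match, and all are written in the direction of the gene.
IL12RB1, minus strand, chr19:18098928-18099177: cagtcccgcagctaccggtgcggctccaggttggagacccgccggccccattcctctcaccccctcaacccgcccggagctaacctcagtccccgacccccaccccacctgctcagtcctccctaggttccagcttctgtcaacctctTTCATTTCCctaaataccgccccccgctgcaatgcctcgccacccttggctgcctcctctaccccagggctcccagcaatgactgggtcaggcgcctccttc
EBI3, plus strand, chr19:4229273-4229522: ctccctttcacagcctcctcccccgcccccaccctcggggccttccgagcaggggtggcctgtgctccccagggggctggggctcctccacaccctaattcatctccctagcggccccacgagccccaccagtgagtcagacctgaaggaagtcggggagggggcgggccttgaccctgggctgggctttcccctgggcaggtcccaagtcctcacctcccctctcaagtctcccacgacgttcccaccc
IL12B, minus strand, chr5:159330488-159330737: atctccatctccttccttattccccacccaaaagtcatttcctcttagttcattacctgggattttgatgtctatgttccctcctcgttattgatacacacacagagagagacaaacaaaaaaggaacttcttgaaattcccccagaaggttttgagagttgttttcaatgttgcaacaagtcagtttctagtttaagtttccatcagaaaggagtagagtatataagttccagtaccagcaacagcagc
IL23A, plus strand, chr12:56338634-56338699: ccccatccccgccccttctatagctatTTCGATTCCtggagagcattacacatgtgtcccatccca
IL12A, plus strand, chr3:159988807-159988854: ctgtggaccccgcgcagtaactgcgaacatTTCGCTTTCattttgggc
The IL12RB1 match lies at -102 to -94 from the start and reads GGAAATGAA on the strand opposite to the gene. The IL23A match, GGAATCGAA, lies at -223 to -215, also on the opposite strand. The IL12A match, GAAAGCGAA on the opposite strand, is of the interferon-stimulated kind and lies just past the start, at 3 to 11. Of the 250 bases before the start, 39.6% were G or C for IL12B, 65.2% for IL12RB1 and 68.8% for EBI3.

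The values are normalized counts, reads per gene after division by a size factor for each library. The Control libraries held 48762519 to 65519047 reads on genes and the KO libraries 39560072 to 54048461, and 1 read was worth 0.80 to 1.35 normalized counts. IRF8 itself had 36890.9, 15192.3, 43015.5 and 22534.8 normalized counts in Control replicates 1 to 4 and 6376.8, 2401.0, 12902.7 and 7819.7 in KO replicates 1 to 4. The mRNA of the targeted gene was thus lower in every KO library than in any Control library, and still present, at 25.1% of the Control mean (log2 fold change -2.11 with a standard error of 0.51, limma adjusted p = 0.022). These reads measure mRNA, and the paper reports by Western blot that IRF8 protein was absent from the KO clones. Libraries with the same replicate number deviated together from their group means, with correlations across genes of 0.37, 0.48, 0.45 and 0.50 for numbers 1 to 4. Number 1 also deviated with number 3, and number 2 with number 4, with correlations of 0.40 to 0.47 between the groups. A pairing by number could thus not be told apart from this split of the libraries. Differences within each replicate number are therefore given beside the group values, as are values of a fit that takes the replicate number as a block, where it changes a call or an interval. All 9 monocytic and myeloid markers passed the filter, with means from 8.03 normalized counts for CD14 to 55440 for FLT3 in Control and from 19.3 for CD14 to 83685 for LYZ in KO.

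Of the 6 tested members, 1 was lower and 0 were higher in the IRF8 KO cells at a limma adjusted p below 0.05, where 9.56% of all 13110 tested genes were lower and 8.65% higher. The member that fell was IL12RB1, the receptor chain that IL-12 and IL-23 share. None of the 6 was higher at an unadjusted limma p below 0.05 either, nor at an adjusted p below 0.05 with edgeR or DESeq2. At the study's own thresholds, which ask for a 2-fold difference and a p below 0.01 without adjustment, 0 of the 6 were called by limma, where 10.9% of all tested genes were. The median log2 fold change of the 6 was -0.63 and that of all tested genes was within 0.01 of 0. In 0 of the 9 members did the 4 Control and the 4 KO values separate completely, where 25.3% of the tested genes did so.

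**Figure D1:**
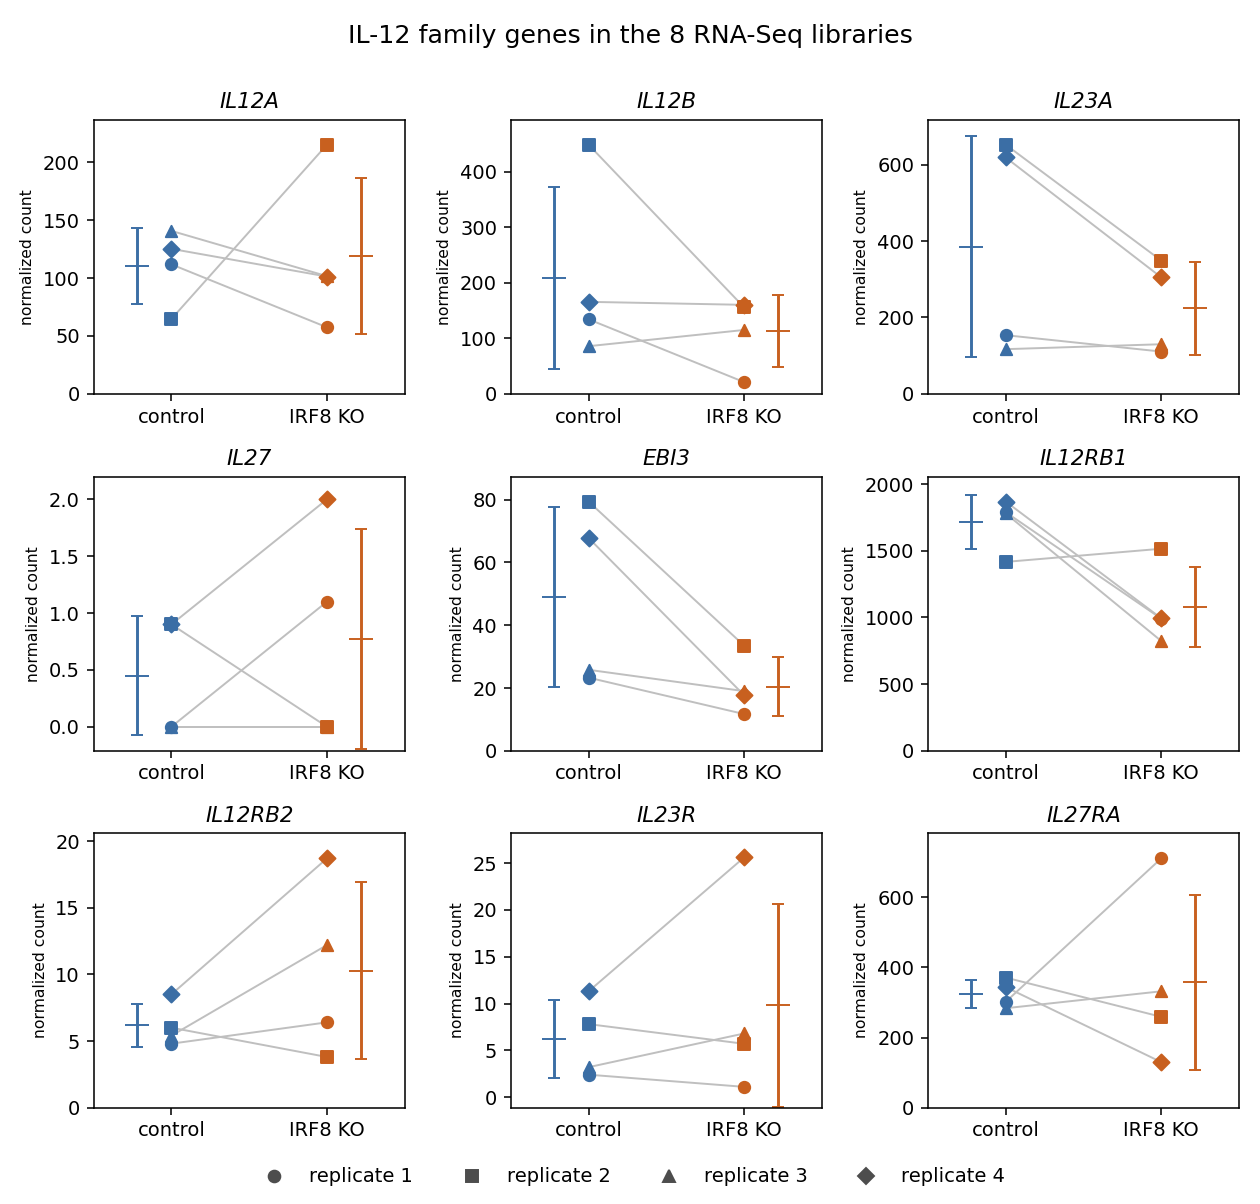
Normalized counts (vertical axis, linear, a scale for each gene) of the 9 IL-12 family genes in the 4 Control and 4 IRF8 KO libraries. Points are libraries, their shape gives the replicate number and grey lines join libraries of the same number, and the bars beside them are the mean ± SD of the 4 libraries. IL12RB1 is lower in 3 of 4 KO libraries and EBI3 is lower in all 4 within its replicate number, while the groups overlap in every panel.

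IL12RB1 lies at chr19:18058995-18098927 and its product is the shared chain of the IL-12 and IL-23 receptors. It had 1789.1, 1416.3, 1779.4 and 1869.0 normalized counts in Control replicates 1 to 4 and 991.0, 1515.0, 823.3 and 993.6 in KO replicates 1 to 4. KO replicates 1, 3 and 4 lay below all Control libraries, whereas KO replicate 2 lay above Control replicate 2, so that the groups overlapped. The means were 1713 ± 202 (SD, n = 4) in Control and 1081 ± 300.3 (SD, n = 4) in KO, which is 63.1% of Control. The log2 fold change was -0.69 (standard error 0.20, 95% interval -1.14 to -0.25, limma adjusted p = 0.040). The exact permutation test of the 4 and 4 values gave p = 0.057, where 0.029 is the smallest p possible. Within the replicate numbers the log2 difference was -0.85, 0.10, -1.11 and -0.91 for numbers 1 to 4. The difference was called with edgeR (adjusted p = 0.049) and DESeq2 (adjusted p = 0.013) on the recovered reads. The call was lost, with limma adjusted p-values of 0.0875 to 0.0981, when any of Control replicates 1, 3 and 4 or KO replicates 1, 3 and 4 was left out, and held without Control replicate 2 or KO replicate 2. Without KO replicate 2, the log2 fold change was -0.87 (adjusted p = 0.0065). The gene shares 1150 bases at its start, on the RefSeq annotation, with MAST3, which was in the table as well. MAST3 had a mean of 2466 normalized counts over all libraries and a log2 fold change of -0.46 (limma adjusted p = 0.23). Whether the reads were counted by strand is not stated in the methods or labels, and the part of the overlap in the IL12RB1 values was not tested. The median over the 1022 tested genes of chromosome 19 was -0.08 on the log2 scale.

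The other chain of the IL-12 receptor, IL12RB2, and the other chain of the IL-23 receptor, IL23R, are neighbours on chromosome 1, and were close to the limit of detection. IL12RB2, at chr1:67307364-67398724, had 6, 7, 5 and 9 reads in Control replicates 1 to 4 and 6, 4, 9 and 19 in KO replicates 1 to 4. In normalized counts this was 6.18 ± 1.61 (SD, n = 4) in Control and 10.3 ± 6.61 (SD, n = 4) in KO, and the groups overlapped (exact permutation test, p = 0.37). IL23R, at chr1:67138637-67265903, had 3, 9, 3 and 12 reads in Control replicates 1 to 4 and 1, 6, 5 and 26 in KO replicates 1 to 4. The highest value of either gene was in KO replicate 4, and KO replicate 1 had the lowest of IL23R, so that the range of the KO libraries enclosed that of the Control libraries for IL23R (exact permutation test, p = 0.80). At these low counts no difference between the groups was detected for either chain (limma without the filter, adjusted p = 0.59 for IL12RB2 and 0.89 for IL23R). IL23R shares 3010 bases with C1orf141, which had a mean of 0.101 normalized counts.

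IL27RA, at chr19:14031762-14053218, encodes the receptor chain that binds IL-27 together with IL6ST. It had 301.7, 370.9, 283.5 and 343.7 normalized counts in Control replicates 1 to 4 and 710.8, 259.0, 331.8 and 129.9 in KO replicates 1 to 4. The Control libraries lay close together, and the KO libraries spread on both sides of them, with replicate 1 the highest and replicate 4 the lowest of all 8. The means were 325 ± 39.7 (SD, n = 4) and 358 ± 249.7 (SD, n = 4). The log2 fold change was -0.11 (standard error 0.44, 95% interval -1.12 to 0.89, limma adjusted p = 0.90), and its sign was the opposite with edgeR and DESeq2 and without KO replicate 4. The shared signaling chain of the IL-6 and IL-27 receptors, IL6ST, had 177.8, 171.6, 204.0 and 235.4 normalized counts in Control replicates 1 to 4 and 684.1, 196.9, 231.6 and 380.7 in KO replicates 1 to 4. It was higher in KO within all 4 replicate numbers, with a log2 fold change of 0.75 (standard error 0.37, 95% interval -0.09 to 1.60, limma adjusted p = 0.20) that did not pass the threshold.

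IL12B, at chr5:159314780-159330487, encodes the chain that IL-12 and IL-23 share. It had 134.3, 448.5, 85.9 and 165.7 normalized counts in Control replicates 1 to 4 and 21.3, 155.8, 115.1 and 160.3 in KO replicates 1 to 4. The highest library was Control replicate 2 and the lowest KO replicate 1, and the other 6 libraries lay between 85.9 and 165.7 in both groups. The mean was 209 ± 163 (SD, n = 4) in Control and 113 ± 64.5 (SD, n = 4) in KO. The log2 fold change of -0.94 had a standard error of 0.72 and a 95% interval of -2.57 to 0.69 (limma adjusted p = 0.42). Within the replicate numbers the log2 difference was -2.60, -1.52, 0.42 and -0.05, so that the lower mean came from numbers 1 and 2. Without KO replicate 1, the log2 fold change was -0.27. The paper, in a figure separate from its RNA-Seq, counts IL12B among the genes whose expression changed strongly in the KO cells. Its text does not give the direction for IL12B.

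IL12A, at chr3:159988835-159996019, encodes the partner of IL12B in IL-12. It had 111.8, 64.7, 140.7 and 125.2 normalized counts in Control replicates 1 to 4 and 57.5, 215.1, 101.6 and 101.3 in KO replicates 1 to 4. The KO range enclosed the Control range, with KO replicate 2 the highest library and KO replicate 1 the lowest. The means were 111 ± 32.8 (SD, n = 4) and 119 ± 67.4 (SD, n = 4), and the log2 fold change was 0.00 (standard error 0.42, 95% interval -0.94 to 0.94, limma adjusted p = 0.999). The interval leaves room for a difference of up to about 0.94 on the log2 scale in either direction. The gene lies, on the RefSeq annotation, within the antisense gene IL12A-AS1, which had no row of its own.

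IL23A, at chr12:56338884-56340410, encodes the chain that makes IL-23 with IL12B. It had 153.7, 652.1, 117.1 and 618.6 normalized counts in Control replicates 1 to 4 and 110.8, 348.9, 130.0 and 305.0 in KO replicates 1 to 4. In both groups replicates 2 and 4 were high and replicates 1 and 3 low, and this split was larger than the difference between the groups. The means were 385 ± 289.4 (SD, n = 4) and 224 ± 121 (SD, n = 4), with a log2 fold change of -0.56 (standard error 0.65, 95% interval -2.05 to 0.93, limma adjusted p = 0.62). With 1 library left out the log2 fold change lay between -1.0 and -0.17, the latter without Control replicate 2, and with library weights it was -0.07. Within the replicate numbers the log2 difference was -0.47, -0.90, 0.15 and -1.02. When the replicate number entered as a block, the 95% interval narrowed to -1.11 to -0.01 with a standard error of 0.24, but the limma adjusted p of 0.12 did not pass the threshold.

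EBI3, at chr19:4229523-4237528, encodes the chain that joins IL27 to form IL-27 and IL12A to form IL-35. It had 23.3, 79.4, 25.8 and 67.8 normalized counts in Control replicates 1 to 4 and 11.7, 33.5, 19.0 and 17.7 in KO replicates 1 to 4. The KO libraries were lower than the Control library of the same number in 4 of 4 cases, while KO replicate 2 lay above Control replicates 1 and 3. The means were 49.1 ± 28.7 (SD, n = 4) and 20.5 ± 9.22 (SD, n = 4), which is 41.7% of Control. The log2 fold change was -1.11 (standard error 0.50, 95% interval -2.25 to 0.02, limma adjusted p = 0.16), and the exact permutation test gave p = 0.11. When the replicate number entered as a block, the 95% interval was -1.91 to -0.32 with a standard error of 0.34, and the limma adjusted p was 0.046. In that fit 2 members, EBI3 and IL12RB1, were lower, where 14.6% of all tested genes were lower. Within the replicate numbers the log2 difference was -0.94, -1.22, -0.42 and -1.88.

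IL27, at chr16:28499362-28506834, encodes the partner of EBI3 in IL-27. It had 2 reads in the 4 Control libraries together and 3 in the 4 KO libraries together, with no more than 2 in any library. No fold is given at this level, and a difference was not detectable. In these bulk samples, fewer cells with a transcript and less of the transcript per cell cannot be told apart for any of the members.

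**Figure D2:**
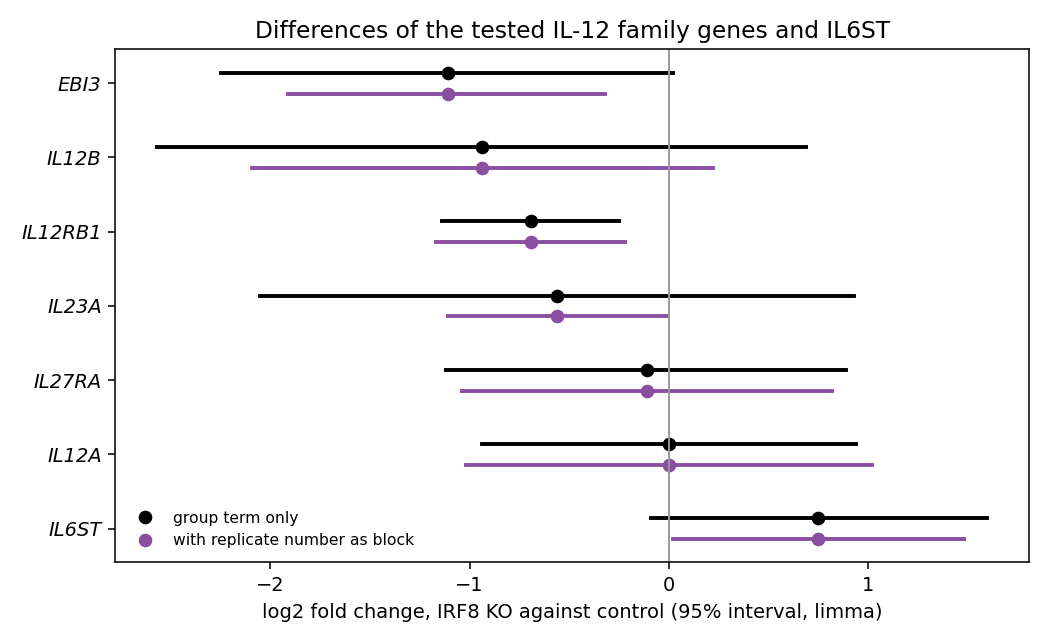
Log2 fold change of IRF8 KO against Control (horizontal axis) with its 95% interval from limma for the 6 tested members and IL6ST, with the group as the only term (black) and with the replicate number as a block (purple). The black interval leaves out 0 for IL12RB1 alone, the purple intervals of IL12RB1, EBI3 and IL23A lie below 0 and that of IL6ST above 0.

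The split of replicates 1 and 3 against 2 and 4 ran through several members. Relative to the group mean on the log2 scale, EBI3 was at -0.84, 0.88, -0.70 and 0.66 in Control replicates 1 to 4, and IL23A at -0.92, 1.16, -1.31 and 1.08. IRF8 went the other way in the Control libraries, at 0.44, -0.84, 0.66 and -0.27. The 2 Control libraries with the most IRF8 mRNA, replicates 1 and 3, also had the lowest EBI3, IL23A and IL12B. In KO replicates 1 to 4, IRF8 was at 0.02, -1.38, 1.04 and 0.32 and EBI3 at -0.66, 0.78, -0.01 and -0.1. IL23A was at -0.83, 0.81, -0.6 and 0.62 there, and IL12B at -2.01, 0.8, 0.37 and 0.84. A relation of these genes to the level of IRF8 was not tested, and among the Control libraries it cannot be told apart from the split. Taken within the replicate numbers 1 and 3, the mean log2 difference between KO and Control was -0.68 for EBI3, -0.16 for IL23A, -1.09 for IL12B and -0.98 for IL12RB1. Within numbers 2 and 4 it was -1.55, -0.96, -0.78 and -0.41 in the same order. For IL27RA and IL12A the direction differed between these sets, with 0.73 and -0.71 within numbers 1 and 3 and -0.96 and 0.71 within numbers 2 and 4.

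**Figure D3:**
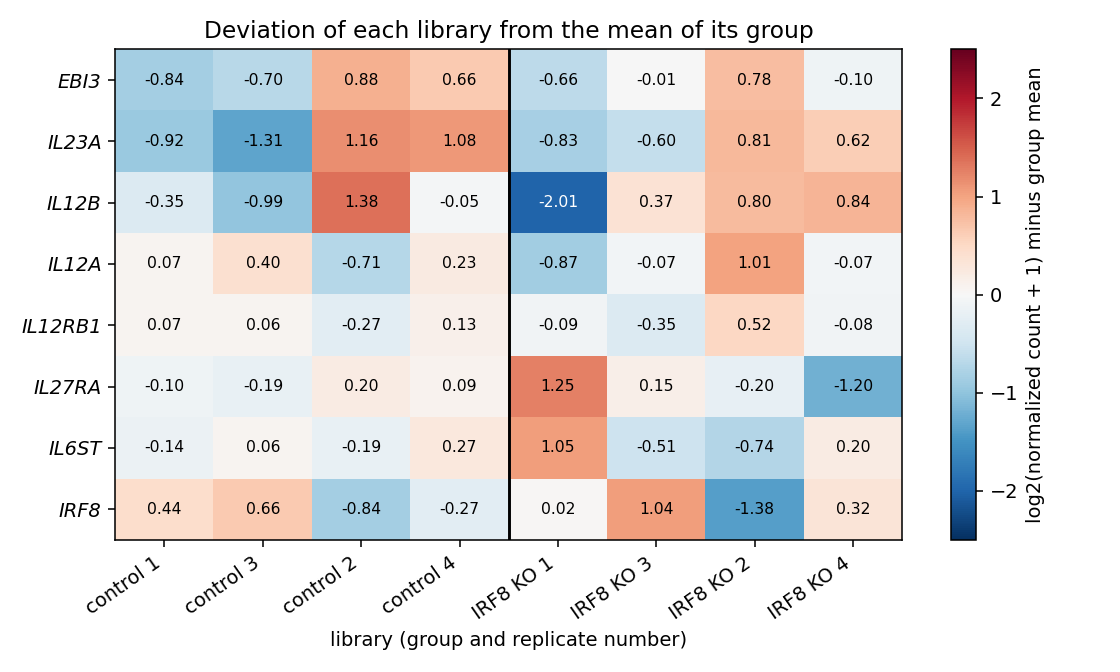
Deviation of log2(normalized count + 1) from the mean of its group (colour and printed value) for the 6 tested members, IL6ST and IRF8 (rows) in the 8 libraries (columns, ordered as replicates 1, 3, 2 and 4 within each group). EBI3 and IL23A are below their group mean in replicates 1 and 3 of Control and above it in replicates 2 and 4, IRF8 is the reverse there, and IL12RB1 deviates most, by 0.52, in KO replicate 2.

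Since the cytokines and receptors work as dimers, the log2 ratio of the 2 chains was compared within each library, on normalized counts + 1. These are ratios of read counts and not of molecules, because the length of the transcripts was not at hand, and 7 ratios were computed. For IL-12, IL12A over IL12B was -0.26, -2.77, 0.71 and -0.40 in Control replicates 1 to 4 and 1.39, 0.46, -0.18 and -0.66 in KO replicates 1 to 4. The groups overlapped, with a difference of 0.94 between their means (exact permutation test, p = 0.40). For IL-35, IL12A over EBI3 was 2.21, -0.29, 2.40 and 0.88 in the Control libraries and 2.20, 2.65, 2.36 and 2.45 in the KO libraries. The KO libraries lay within a narrow band around 2.42 ± 0.19 (SD, n = 4), which 2 of the Control libraries shared, and the difference of 1.12 did not pass the test (exact permutation test, p = 0.14). For the IL-27 receptor, IL27RA over IL6ST was 0.76, 1.11, 0.47 and 0.54 in the Control libraries and 0.06, 0.39, 0.52 and -1.54 in the KO libraries. This difference of -0.87 had an exact permutation p of 0.057 and a p of 0.30 after adjustment over the 7 ratios. The differences were 0.38 for IL23A over IL12B (exact permutation test, p = 0.54), -1.17 for IL12RB1 over IL12RB2 (exact p = 0.17) and -0.92 for IL12RB1 over IL23R (exact p = 0.37). The ratio of IL27 to EBI3 is not given, since IL27 had at most 2 reads in a library and its part of the ratio is set by the 1 count added. The groups overlapped in all 7 ratios.

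The other genes of the pathway were taken from 5 lists with 68 genes in all. Of these, 67 were in the table and 49 were tested. In the KO cells, 8 of the 49 were lower (16.3%) and 2 higher (4.08%), beside 9.56% and 8.65% of all tested genes, and their median log2 fold change was -0.03. This lean did not hold in the fit with the replicate block, where 9 of the 49 were lower (18.4%) and 7 higher (14.3%), beside 14.6% and 14.2% of all tested genes.

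In the list of signal transduction genes, 0 of the 8 tested genes were called. The kinases of the receptors had 9986 and 8586 normalized counts for TYK2, 927 and 733 for JAK2 and 5399 and 6033 for JAK1 as means of Control and KO. STAT4, the factor that IL-12 acts through in T and NK cells, was not among the tested genes, with 1.79 ± 0.972 normalized counts (SD, n = 4) in Control and 10.3 ± 7.87 (SD, n = 4) in KO. STAT3, which IL-23 uses, had a mean of 3932 normalized counts in Control and 4388 in KO, and a log2 fold change of 0.20 that did not pass the test (limma adjusted p = 0.59).

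In the list of feedback genes and phosphatases, 2 of 9 fell and 0 rose. These were PTPN1 and PTPN6, phosphatases that act on the kinases and STATs of cytokine receptors. PTPN6 had 25122 ± 1064 normalized counts (SD, n = 4) in Control and 14422 ± 2506 (SD, n = 4) in KO (log2 fold change -0.82 with a standard error of 0.14, limma adjusted p = 0.0041). PTPN1 had a log2 fold change of -0.70 (limma adjusted p = 0.0049). Its chromosome is 20, and the median over the 351 tested genes there was -0.92 on the log2 scale. The suppressors of cytokine signaling SOCS1 and SOCS3 had log2 fold changes of 0.99 and 0.48 (limma adjusted p = 0.14 and 0.059), with higher values in KO within all 4 replicate numbers. Both were called higher with the replicate block (limma adjusted p = 0.0041 and 0.038), so that 2 genes of this list fell and 2 rose in that fit.

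In the list of response genes and partner cytokines, 2 of 8 fell and 2 rose. TBX21, the T-bet factor that IL-12 induces in T cells, had 68.4, 331.2, 41.9 and 190.2 normalized counts in Control replicates 1 to 4 and 1.1, 18.2, 0.0 and 3.0 in KO replicates 1 to 4 (log2 fold change -5.05 with a standard error of 0.97, limma adjusted p = 0.0076). Every KO value was below every Control value, and replicates 2 and 4 were again the higher Control libraries. TNF fell to 13.2% of its Control mean (log2 fold change -2.93, limma adjusted p = 0.00032). IL18, a cytokine that acts together with IL-12, rose by a log2 fold change of 1.77 (limma adjusted p = 0.046), and its receptor chain IL18R1 by 3.71 (limma adjusted p = 0.012). With the replicate block IL10RA, a chain of the IL-10 receptor, was also lower (log2 fold change -1.07, limma adjusted p = 0.047). The cytokine genes IFNG, IL17A, IL21 and IL22, products of T and NK cells that respond to IL-12 or IL-23, were at 0 in all 8 libraries.

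Of the transcription factors known to act on genes of the family in myeloid cells, 3 of 17 fell and 0 rose. IRF5, which activates IL12B and IL23A in macrophages, fell to 20.3% of its Control mean (log2 fold change -2.36, limma adjusted p = 0.0037). IRF4 fell to 37.0% (log2 fold change -1.67, limma adjusted p = 0.045) and ETS2 to 59.5% (log2 fold change -0.82, limma adjusted p = 0.036). SPI1, which encodes PU.1, had a log2 fold change of 0.29 (limma adjusted p = 0.40). With the replicate block 3 fell and 3 rose, the latter being NFKB1 (log2 fold change 0.52, limma adjusted p = 0.0090), KLF4 (1.08, limma adjusted p = 0.041) and IRF1 (0.57, limma adjusted p = 0.048). Of the related cytokines and receptors of the IL-6 group, 1 of 7 tested genes fell and 0 rose, namely IL31RA (log2 fold change -3.32, limma adjusted p = 0.035).

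**Figure D4:**
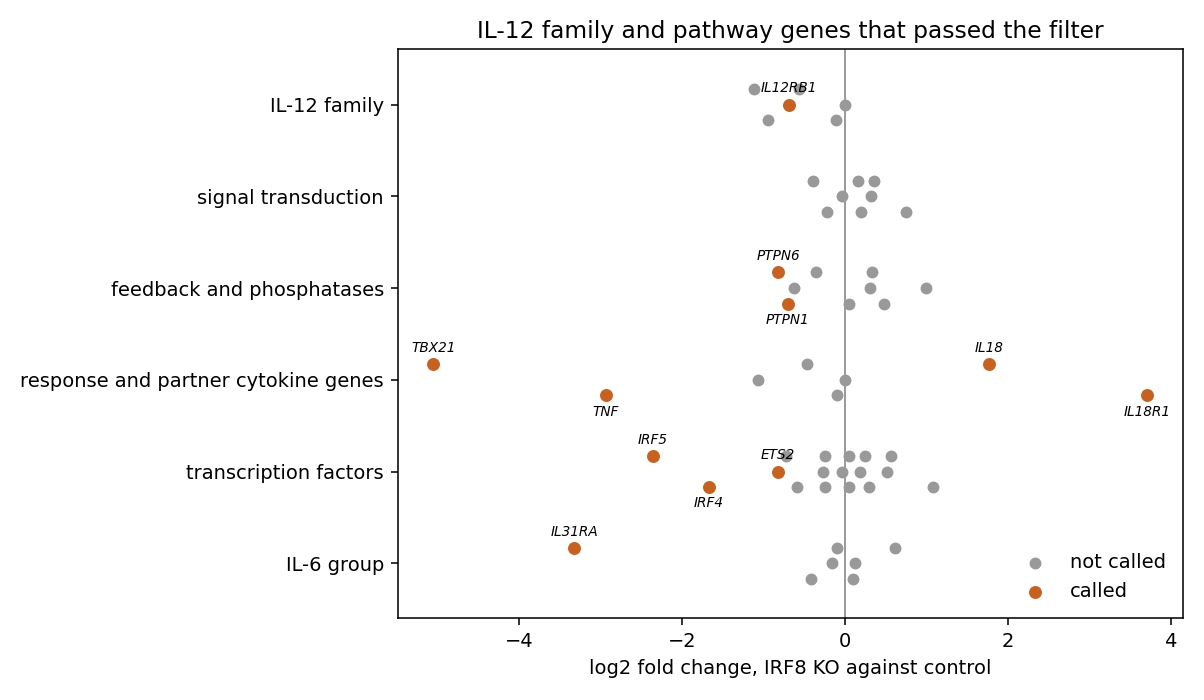
Log2 fold change of IRF8 KO against Control (horizontal axis) of the tested IL-12 family genes and of the tested genes of the 5 pathway lists (rows; height within a row has no meaning). Orange points passed a limma adjusted p of 0.05 and are named, grey points did not. The only called family gene, IL12RB1, differs by -0.69, while TBX21 in the response list differs by -5.05 and IL18R1 by 3.71.

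Markers of other cell types were read beside these results. Of the T and NK cell markers, the cells in which the IL-12 receptor is best known, 1 of 9 passed the filter, NKG7, and was not called (limma adjusted p = 0.089), though it was lower with the replicate block (limma adjusted p = 0.039). The T cell receptor chains CD3D, CD3E and CD3G had means of at most 1.32 normalized counts in either group. Those of CD8A, KLRD1 and ZAP70 were at most 5.62. Also below the filter, CD2 and GNLY went up, with means of 1.59 and 4.19 in Control and 10.9 and 13.5 in KO. The summed level of these 9 markers was 2549 to 3102 in Control and 1069 to 2705 in KO, of which NKG7 made up nearly all in each library. Of the dendritic cell markers, 3 of 7 were tested and all 3, CD1C, CLEC10A and CCR7, fell. The summed level went from 1164 to 2598 in Control to 16.0 to 66.9 in KO, and CLEC10A alone had a Control mean of 1586. Below the filter, CLEC9A went the other way, with 0 reads in every Control library and 3, 5, 6 and 16 in KO replicates 1 to 4. FCER1A had 15, 7, 13 and 10 reads in Control replicates 1 to 4 and 0 in every KO library. XCR1 had 0 reads throughout, and LAMP3 had 0 in Control and 2 in KO. Of the monocytic and myeloid markers, 4 of 9 rose, MPO, ITGAM, CD68 and FCGR1A, with summed levels of 71823 to 84974 in Control and 102555 to 332638 in KO. The highest KO sum was that of replicate 1, where LYZ alone had 248604 normalized counts, and without that library it was 116668. LYZ had a log2 fold change of 3.09 (limma adjusted p = 0.060), and with the replicate block 6 of the 9 rose, LYZ and CD14 included, and CD33 fell. Of the B cell markers, 2 of 5 were tested, with summed levels of 193 to 512 in Control and 168 to 923 in KO. Of the erythroid markers, 1 of 5 was tested, KLF1, and rose, with summed levels of 7.2 to 11.3 and 22.6 to 51.5. The part of these shifts in the values of the members was not tested.

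The genes most like each member were taken as those with the highest Pearson correlation of log2 values over the 8 libraries, for the 5 members with a mean of at least 100. They are a description of these 8 libraries, which include both groups, and come with no test. For IL12RB1 these were KLHL23, STXBP6 and DHTKD1, with r from 0.968 to 0.975. For IL12B they were IMMP2L, ADRA1B and AHRR, with r from 0.964 to 0.971. For IL23A they were KLF9, ESRP1 and MATN4, with r from 0.990 to 0.995, and for IL12A PCDHGB7, ZNF93 and TNFAIP8L3, with r from 0.928 to 0.955. For IL27RA the highest were lower, with r from 0.905 to 0.914 for ACAA2, ERGIC3 and MYL12B. By deviations from the group means, the first gene was TIFAB for IL12RB1 (r = 0.974), ME3 for IL12B (r = 0.995), KLF9 again for IL23A (r = 0.997) and ANKRD63 for IL12A (r = 0.967).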

How the data were processed

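Per the methods, alignment to GENCODE transcripts was done with RNA-Star, counting with featureCounts and normalization with DESeq2. The deposited signal per gene is the read count of the authors after division by a size factor for each library. The deposited table of the comparison was not used. The labels name hg19 and hg38 without saying which applies to the RNA-Seq. Control columns, headed as wild type, were matched by replicate number, and 0 columns were left unassigned. When divided by what 1 read is worth, 100% of the values were whole within 0.01 reads.

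limma 3.58.1 (R 4.3.3, trended and robust) was run on log2(normalized count + 1) for the genes whose mean was 10 or more, with Benjamini-Hochberg adjustment. Such fold changes understate those of low genes. edgeR 4.0.16 and DESeq2 1.42.0 were run on the recovered reads, which at this threshold called 2333 and 3402 of 13110 genes, and limma 2387. The fits were tested on simulated counts that were drawn independently for each library. These held no split of the replicates, so that the test says nothing about the fits under such a split. Exact permutation tests were two-sided.

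Members and lists were chosen with earlier results of these data known. Named were all members, IRF8, the called genes of the lists (up to 10 a list), the 3 most alike genes of each member with a mean of at least 100, and neighbouring genes as counts. Of the likeness by deviations only the first gene is given, and a few genes that the rule names are not reported here. IL6ST, TYK2, JAK1, JAK2, STAT3, STAT4, SOCS1, SOCS3, SPI1, IL10RA, NFKB1, KLF4, IRF1, the called neighbours ARRDC2, CNPY2 and CREB3L3, and the markers named with values were singled out after their values were seen. The values of MAST3 were also given after they were seen. Replicates were taken as paired by number only in the fit with the replicate block and in the differences within replicate numbers. The main fit, edgeR, DESeq2 and the exact permutation tests did not use the pairing. It was considered because every correlation between libraries of the same number was over 0.1. The correlations of number 1 with 3 and of number 2 with 4 passed this as well. The rule therefore could not tell a pairing by number from the split of 1 and 3 against 2 and 4.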

Additional observations from a re-analysis of the deposited data

How the results depend on the processing

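The number of members called, 1 in the report, was 0 with limma without trend (IL12RB1 adjusted p = 0.0504), 0 at the study's thresholds, 0 at an adjusted p below 0.01, and 2 with the replicate block, which added EBI3 (adjusted p = 0.046). At an unadjusted p below 0.05 limma without trend had 2 members, and at an adjusted p below 0.05 edgeR and DESeq2 each had 1. With 1 library left out it was 0 to 1. The number of called pathway genes, 10, was 16 with DESeq2 (6 higher, 10 lower), 16 with the replicate block (7 higher, 9 lower) and 6 to 10 with 1 library left out, the lowest without KO replicate 3. Over all genes, 2387 were called, and 3769 with the replicate block. The log2 fold change of IL27RA was 0.13 with edgeR, 0.14 with DESeq2 and -0.53 to 0.28 with 1 library left out. The difference in IL23A over IL12B was -0.02 to 0.75 with 1 library left out, the lowest without KO replicate 1. The cause of these changes was not tested. The replicate block changed no other call of a member, and the calls it changed in the lists stand in the report.

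With 1 library left out, the difference in IL12A over IL12B was 0.24 to 1.40 (lowest without Control replicate 2), in IL12A over EBI3 0.59 to 1.48 (lowest without Control replicate 2), in IL12RB1 over IL23R -1.50 to -0.27 (smallest without KO replicate 4), in IL12RB1 over IL12RB2 -1.69 to -0.81 and in IL27RA over IL6ST -1.09 to -0.40. The last had an exact permutation p of 0.029 without KO replicate 3 and 0.14 without KO replicate 4, and IL12RB1 over IL12RB2 one of 0.029 without KO replicate 2 (-1.69). EBI3 has no value at a filter of 100, and IL12RB2, IL23R and IL27 have none in most settings because so few reads fell on them.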

Other observations

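Of the 36 genes that lie nearest to the 6 tested members, 3 on each side, 23 were tested, and 3 were called higher and 0 lower in the IRF8 KO cells. Of all tested genes, 8.65% were called higher and 9.56% lower, and at so few neighbours these counts cannot be told from those shares. The 3 were ARRDC2 beside IL12RB1 (log2 fold change 0.42, limma adjusted p = 0.0405), CNPY2 beside IL23A (0.76, limma adjusted p = 0.0023) and CREB3L3 beside EBI3 (4.03, limma adjusted p = 0.0065).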
